A study of Mus musculus with 96 samples.

Results

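The striatum and the cerebral cortex of the same wild-type (WT) mice were compared across all genes. The comparison used 16 of the 96 libraries of the series, 8 of striatum and 8 of cortex. They were chosen by the genotype and tissue in their titles and paired by the animal code that both titles carry. The 8 animals were 4 females and 4 males on a C57BL/6 background, 6 months old. Total RNA had been purified from dissected tissue on RNeasy columns and made into stranded TruSeq libraries. The labels do not describe the borders of the dissection. The series holds the same layout for 5 other genotypes, namely the heterozygous Q140 knock-in (an Htt allele with an expanded CAG repeat), Pms1+/-, Pms1-/- (Pms1 is a mismatch repair gene, and the labels do not describe its allele), and the knock-in with either. The text of the series gives 16 per group, 8 of each sex, whereas the labels name 8 animals per genotype, each with both tissues. Of the other genotypes, the heterozygous Q140 animals, the Pms1+/- animals (Pms1 het) and the Pms1-/- animals (Pms1 null) were used here, 8 of each, all of the same age and background. WT animals had first code numbers 8, 11, 12, 14 and 27, with at most 2 animals for each; the labels do not say what that number stands for, and animals that share it may not be independent.

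The striatum is the input nucleus of the basal ganglia. Most of its neurons are medium spiny neurons (MSNs), inhibitory projection cells that read the dopamine signal from the midbrain. MSNs of the direct pathway carry the D1 receptor, substance P and dynorphin, and those of the indirect pathway carry the D2 receptor, the adenosine receptor encoded by Adora2a, and enkephalin; a small share of the other neurons are cholinergic or GABAergic interneurons. The cortex is layered, and most of its neurons are excitatory cells that load glutamate into vesicles with VGLUT1, the product of Slc17a7. Striatal cells arise from the ventral telencephalon and cortical excitatory cells from the dorsal telencephalon, under different sets of transcription factors. In bulk tissue, more cells of a type and more RNA per cell cannot be told apart, which holds for every difference below.

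Library totals lay between 32454122 and 56364535 counts in striatum and between 29239435 and 49176625 in cortex and did not pass an exact sign-change test over the 8 pairs (two-sided p = 0.15; the smallest p that 8 pairs allow is 0.0078). The 10 most abundant genes took 6.54% of the counts in striatum and 5.36% in cortex, and mitochondrial genes 5.82% and 4.30%, both higher in striatum in 8 of 8 animals (exact p = 0.0078 each). Animal 14-4 stood apart in genes of the ventricular wall. Its striatal library held 0.253 CPM (counts scaled by library size) of the proliferation gene Top2a against 2.15 to 5.10 CPM in the other 7 striata, and 0.0362 CPM of the ependymal gene Ccdc153 against 2.19 to 4.01 CPM. Results that rest on such genes are given with and without that animal.

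The tissue labels were checked with 1 defining gene each. Drd1 (ENSMUSG00000021478, chromosome 13, 54051183 to 54055705, GRCm38), the D1 dopamine receptor, lay between 364 and 408 CPM in the 8 striata (median 394) and between 4.23 and 6.06 CPM in the 8 cortices (median 4.98). Slc17a7 (ENSMUSG00000070570, chromosome 7, 45163949 to 45176142) lay between 2.62 and 5.40 CPM in the 8 striata (median 3.98) and between 1118 and 1371 CPM in the 8 cortices (median 1225). No library of 1 tissue reached the range of the other for these genes, and every library fell with its labelled tissue. In the paired fit (edgeR's quasi-likelihood test with the animal as a block), the log2 difference, striatum minus cortex, was 6.25 for Drd1 (SE 0.05, adjusted p = 2.0e-24) and -8.32 for Slc17a7 (SE 0.10, adjusted p = 1.6e-13). All log2 differences below have this direction, so that a positive value is higher in striatum, and are given as the estimate ± its SE. The p-values are adjusted by Benjamini-Hochberg over 18246 genes tested.

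The 2 tissues differed at most genes. Of the genes tested, 7190 (39.4%) were higher in striatum and 7129 (39.1%) higher in cortex at an adjusted p below 0.05, 78.5% in all, and 3927 were not called. The median log2 difference was 0.01 and the median size 0.35, against a median SD of 0.14 between the 8 animals' own differences. A call alone therefore says little about a gene, and a rule of size was set beside it. At least 2-fold, 1643 genes (9.00%) were higher in striatum and 1989 (10.9%) higher in cortex. At 4-fold the numbers were 581 and 814, and at 16-fold 213 and 230. The 8 striatal and the 8 cortical values did not overlap at all for 9166 genes, 50.2% of those tested. The counts of list members below are to be read against these shares. A list with members on both sides at about these shares is like genes at large, and this is not a trait of that list. The genes named below as higher or lower had edgeR adjusted p-values of at most 0.025 in this fit, and their directions held in 8 of 8 animals unless another number is given.

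**Figure D1:**
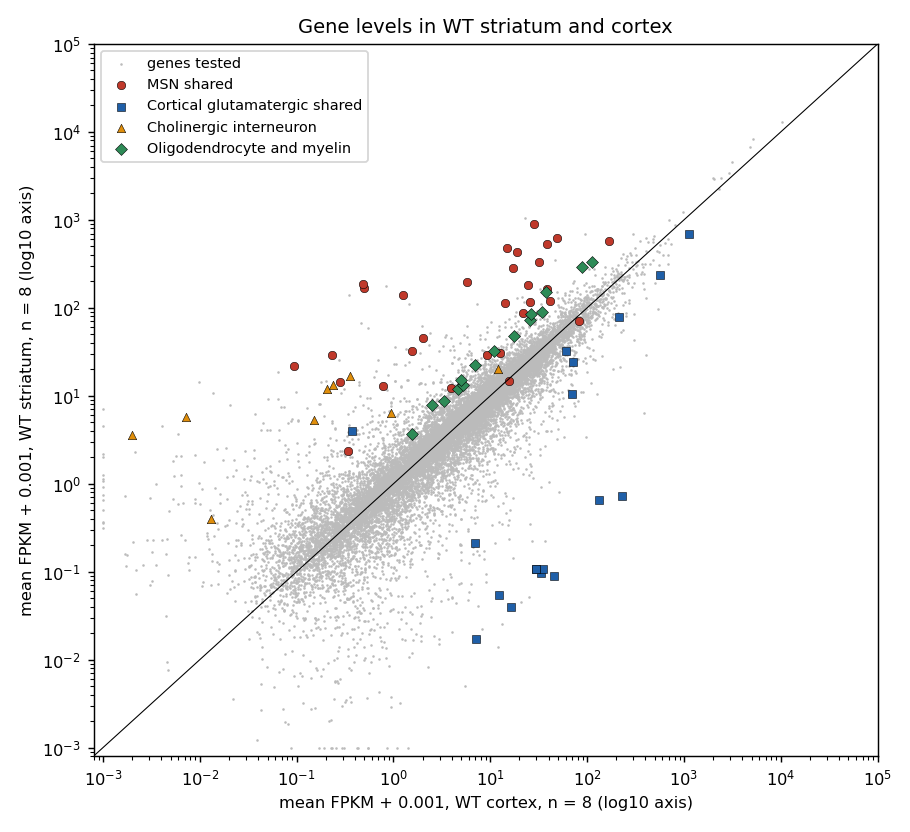
Mean FPKM (fragments scaled by gene length and library size, deposited by the authors) of each tested gene in the 8 WT cortices (horizontal, log10 axis) and the 8 WT striata (vertical, log10 axis), with 0.001 added. Grey points are all tested genes, and coloured points are the shared MSN, cortical glutamatergic, cholinergic and myelin lists; most MSN genes lie well above the diagonal and most cortical glutamatergic genes well below it, while most grey points lie close to it.

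Some genes were counted in 1 tissue and close to absent in the other. With at least 10 CPM in 1 tissue and under 0.1 CPM in the other, 7 genes were striatal and 7 cortical. Six3 (ENSMUSG00000038805, chromosome 17, 85613608 to 85629302), a homeobox factor of ventral forebrain development, had 2589 to 4425 counts per striatum and 0 to 4 per cortex. Its antisense neighbour Six3os1 had 906 to 1465 counts per striatum and 0 to 1 per cortex; the strand setting of the counting is not given, so reads of the pair may not be told apart. Isl1, a LIM-homeobox factor of direct-pathway MSNs and cholinergic cells, had 540 to 1019 and 0 to 1 counts. The other striatal genes of this kind included Gpx6, Ptpn7 and the long non-coding gene Gm44529. The cortical ones were Rtn4rl2, a Nogo receptor homologue with 0 to 8 counts per striatum and 1079 to 1961 per cortex, the neuronal basic helix-loop-helix factor Neurod1 with 0 to 4 and 562 to 911, the zinc-finger factor Ovol2 with 0 to 2 and 335 to 673, and Ntn5, Clec18a, Mylk3 and 9130024F11Rik. No fold is given here or below for a gene with so few counts in each library of its lower tissue, because counts of at most 8 in the low tissue set no fold.

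Ranked by fold among named genes with at least 1 CPM, the striatal end also held Lhx8, Dsg1c, Mhrt, Ifi27l2b, Drd2, Lrrc10b, Syndig1l, Serpina9 and Wnt8b. Serpina9, a serine protease inhibitor, lay between 63.8 and 75.9 CPM in the 8 striata (median 68.7) and between 0.172 and 0.323 CPM in the 8 cortices (median 0.222), a log2 difference of 8.17 ± 0.06. Gpx6, a glutathione peroxidase, lay between 7.78 and 16.9 CPM in the 8 striata (median 14.3) with at most 0.0835 CPM in any cortex; animal 8-4 had the lowest striatal value, 7.78 CPM, against 10.7 to 16.9 CPM in the other 7. Dsg1c, a desmosomal cadherin, lay between 1.45 and 4.72 CPM in the 8 striata (median 2.76) and had 0 to 1 counts per cortex. The cortical end held Igfn1, Slc30a3, Dmrt2, Chrnb3, Neurod6, Neurod2, Tbr1, Olfr464 and Myoc beside those above. Igfn1, an immunoglobulin and fibronectin domain protein known from muscle, lay between 0.0438 and 0.188 CPM in the 8 striata (median 0.117) and between 81.7 and 129 CPM in the 8 cortices (median 109), or 2 to 8 counts per striatum. Myoc, the gene of myocilin, lay between 0.0211 and 0.199 CPM in the 8 striata (median 0.103) and between 20.0 and 35.3 CPM in the 8 cortices (median 23.9), a log2 difference of -7.83 ± 0.12. The groups did not overlap for any gene named in this paragraph.

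Genes shared by both MSN types were higher in striatum nearly throughout. Of 30 such genes, 28 were higher in striatum, all of them at least 2-fold, 1 was lower (Itpka) and 1 was not called (Ddit4l). Their median log2 difference was 3.74, against 0.01 over all genes tested. Together they took 24407 to 27471 CPM per striatum and 2759 to 3017 CPM per cortex. Ppp1r1b (ENSMUSG00000061718, chromosome 11, 98348404 to 98357796), which encodes DARPP-32, the protein that turns dopamine input into inhibition of protein phosphatase 1, lay between 2446 and 2834 CPM in the 8 striata (median 2677) and between 70.9 and 97.8 CPM in the 8 cortices (median 81.1), a log2 difference of 5.01 ± 0.06. The cAMP and cGMP phosphodiesterase Pde10a lay between 2261 and 2619 CPM in the 8 striata (median 2519.9) and between 58.7 and 89.8 CPM in the 8 cortices (median 74.2), with a log2 difference of 5.09 ± 0.09 (adjusted p = 1.6e-11). Rgs9, which speeds the shut-off of G proteins behind the dopamine receptors, lay between 824 and 939.7 CPM in the 8 striata (median 892) and between 7.13 and 9.17 CPM in the 8 cortices (median 7.74), with a log2 difference of 6.80 ± 0.04 (adjusted p = 1.2e-26). All 8 striatal values of these genes lay above all cortical values.

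Signalling partners of the same cells followed. The G protein gamma subunit Gng7 had a log2 difference of 4.50 ± 0.03, the adenylyl cyclase Adcy5 4.03 ± 0.03 and the olfactory-type G alpha subunit Gnal 2.87 ± 0.02. Scn4b, a sodium channel beta subunit, lay between 2404 and 2802 CPM in the 8 striata (median 2670.3) and between 152 and 236 CPM in the 8 cortices (median 192), a log2 difference of 3.80 ± 0.06. The largest differences on the list were those of Lrrc10b and Syndig1l. Lrrc10b, a leucine-rich repeat protein, lay between 352 and 412 CPM in the 8 striata (median 391) and between 0.752 and 1.59 CPM in the 8 cortices (median 0.959), with a log2 difference of 8.59 ± 0.07 (adjusted p = 9.6e-22), and Syndig1l, a relative of a synapse differentiation protein, lay between 388 and 495 CPM in the 8 striata (median 424) and between 1.01 and 1.52 CPM in the 8 cortices (median 1.25), with a log2 difference of 8.40 ± 0.05 (adjusted p = 1.2e-26). Cd4, known as a T-cell co-receptor, was among the striatal genes at 117 ± 8.24 CPM in striatum and 0.926 ± 0.287 CPM in cortex (mean ± SD, n = 8). Smaller differences were those of Hpca, a calcium sensor, at 1.77 ± 0.03, of the phosphatase Ptpn5 at 2.08 ± 0.03 and of Kcnip2, a subunit of A-type potassium channels, at 1.52 ± 0.04. Per length, on the FPKM scale, Ppp1r1b was the most abundant of them in striatum at 903 ± 34.1 FPKM, with Pde1b at 624 ± 13.4, Hpca at 577 ± 28.0 and Scn4b at 533 ± 20.9 (SD, n = 8 each). Ddit4l, an mTOR inhibitor, lay between 35.8 and 53.5 CPM in the 8 striata (median 38.7) and between 40.5 and 52.7 CPM in the 8 cortices (median 43.9), and the tissues overlapped (log2 difference -0.09, SE 0.11, adjusted p = 0.45; higher in striatum in 3 of 8 animals).

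Both output pathways were represented. Of 9 direct-pathway genes, 8 were higher in striatum, 7 of them at least 2-fold, and Eya1 was lower (-0.17 ± 0.07; 6 of 8 animals), a call that was lost without any 1 of 5 animals (11-2, 11-4, 12-4, 14-2 or 8-4; adjusted p up to 0.082) and without the animal block (0.092). Tac1, the precursor of substance P, lay between 189 and 231 CPM in the 8 striata (median 217) and between 5.38 and 7.91 CPM in the 8 cortices (median 6.37), a log2 difference of 5.01 ± 0.08. Slc35d3, which promotes the surface delivery of the D1 receptor, had a difference of 6.53 ± 0.06, the transcription factor Ebf1 of 2.77 ± 0.06, and the prodynorphin gene Pdyn, which cortical cells also express, of 2.02 ± 0.08. Of 8 indirect-pathway genes, 7 were higher in striatum, all at least 2-fold, and Plxdc1 was lower (-0.95 ± 0.04). Drd2 (ENSMUSG00000032259, chromosome 9, 49340627 to 49408177), the D2 receptor, lay between 201 and 231 CPM in the 8 striata (median 221) and between 0.391 and 0.650 CPM in the 8 cortices (median 0.532), with a log2 difference of 8.69 ± 0.05 (adjusted p = 1.2e-26). Adora2a, the adenosine receptor of these cells, lay between 400.5 and 493 CPM in the 8 striata (median 448) and between 1.74 and 2.58 CPM in the 8 cortices (median 1.98), with a log2 difference of 7.71 ± 0.05 (adjusted p = 6.9e-25). Penk, the enkephalin precursor, lay between 1569.8 and 1965 CPM in the 8 striata (median 1659) and between 27.5 and 46.4 CPM in the 8 cortices (median 37.2), with a log2 difference of 5.54 ± 0.14 (adjusted p = 2.0e-09). In cortex the D1 receptor gene was counted at 1.45 ± 0.168 FPKM and the D2 receptor gene at 0.343 ± 0.0582 FPKM, against 111 ± 3.53 and 141 ± 6.02 in striatum (SD, n = 8 each).

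**Figure D2:**
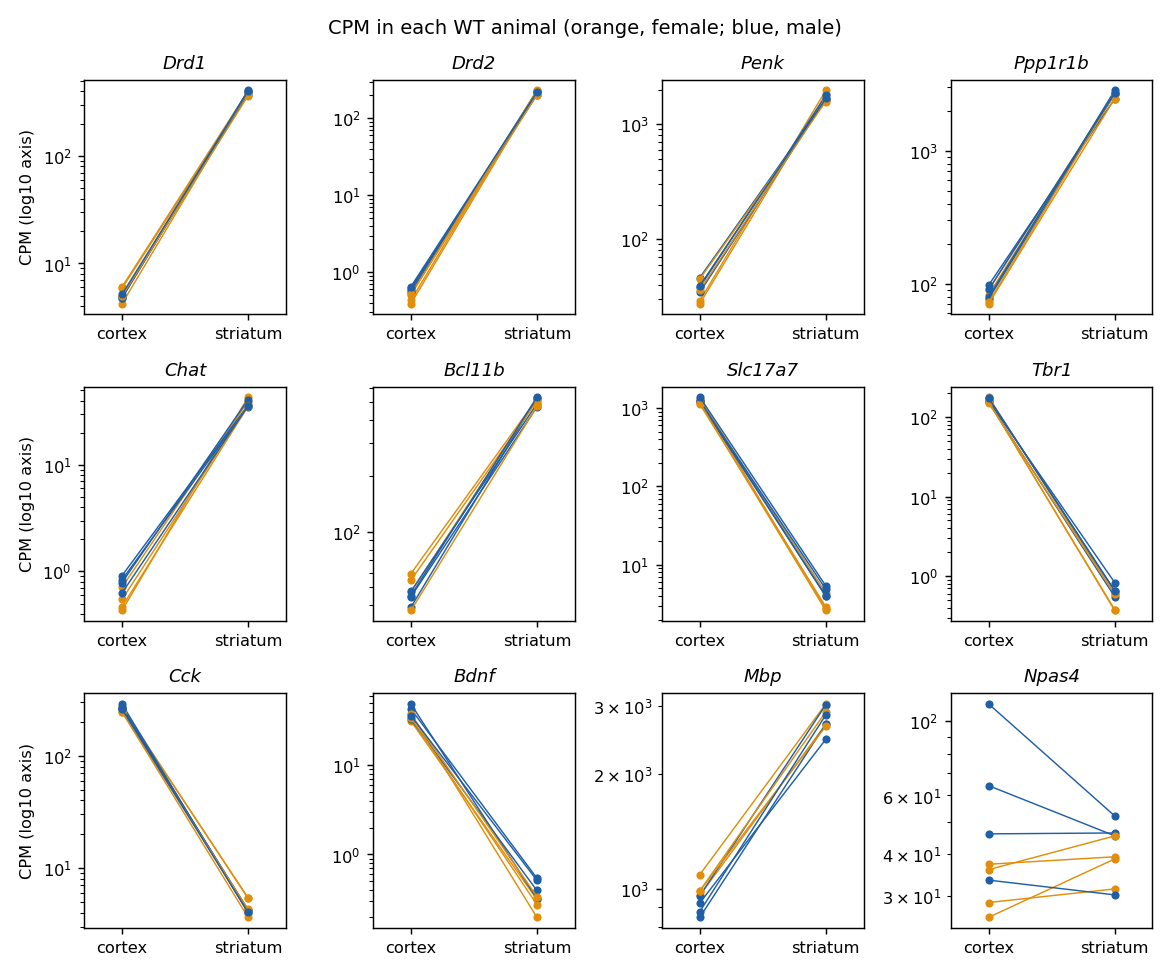
CPM on a log10 axis of 12 genes in each of the 8 WT animals. Each line joins the cortex and the striatum of 1 animal (orange, female; blue, male); for 11 of the 12 genes the tissues do not overlap, and Npas4 is the gene where they do.

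The striatum is divided into striosomes and the surrounding matrix. Of 11 genes used to tell these compartments apart, 6 were higher in striatum, 4 lower and 1 not called, so their contrast with cortex had no common direction. Oprm1, the mu-opioid receptor that marks striosomes, lay between 4.09 and 6.69 CPM in the 8 striata (median 5.04) and between 0.501 and 1.28 CPM in the 8 cortices (median 0.900), a log2 difference of 2.48 ± 0.10. The inhibitor of DNA binding Id4 had a difference of 2.67 ± 0.05, and Calb1, the calbindin of the matrix, of 1.22 ± 0.04. Lower in striatum were Kcnip1 (-2.02 ± 0.06), Sv2b (-1.53 ± 0.04) and Gda (-0.80 ± 0.03).

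Genes of cholinergic interneurons, the source of striatal acetylcholine, were higher in striatum. All 9 genes of the list were higher in striatum, 8 of them at least 2-fold, with a median log2 difference of 5.58. Chat, the synthetic enzyme, lay between 35.0 and 43.0 CPM in the 8 striata (median 36.0) and between 0.431 and 0.914 CPM in the 8 cortices (median 0.670), with a log2 difference of 5.83 ± 0.08 (adjusted p = 1.1e-20). Slc5a7, the choline transporter, lay between 58.0 and 69.9 CPM in the 8 striata (median 60.4) and between 0.856 and 1.32 CPM in the 8 cortices (median 1.05), with a log2 difference of 5.86 ± 0.05 (adjusted p = 6.0e-24). Slc18a3, the vesicular acetylcholine transporter, lay between 11.2 and 14.3 CPM in the 8 striata (median 12.8) and between 0.172 and 0.473 CPM in the 8 cortices (median 0.387), with a log2 difference of 5.10 ± 0.11 (adjusted p = 1.1e-18). None of the 3 overlapped between the tissues. Lhx8, the LIM-homeobox factor of these cells, had 324 to 474 counts per striatum and 0 to 1 per cortex. Slc17a8, which encodes VGLUT3 and is used by cholinergic cells to release glutamate, had a difference of 2.75 ± 0.11. Ache, which breaks acetylcholine down, differed least, at 0.76 ± 0.03. Nkx2-1, a homeobox factor of the same lineage, lay between 6.55 and 7.78 CPM in the 8 striata (median 7.01) with at most 0.103 CPM in any cortex. Lhx8 and Nkx2-1 are also genes of the globus pallidus and septum, which border the striatum.

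Genes of cortical excitatory neurons were the counterpart. Of 17, 16 were lower in striatum, 14 of them at least 2-fold, and Baiap3 was higher (3.41 ± 0.08); the median was -7.66. Slc30a3, which loads zinc into glutamatergic vesicles, lay between 0.0658 and 0.445 CPM in the 8 striata (median 0.211) and between 119 and 143 CPM in the 8 cortices (median 125), with a log2 difference of -8.95 ± 0.11 (adjusted p = 2.3e-15). Nrn1, the gene of the growth factor neuritin, lay between 0.994 and 1.40 CPM in the 8 striata (median 1.15) and between 223 and 267 CPM in the 8 cortices (median 232), with a log2 difference of -7.66 ± 0.04 (adjusted p = 1.2e-26). Every cortical value of these genes lay above every striatal value. Slc17a6, which encodes VGLUT2, lay between 0.350 and 1.58 CPM in the 8 striata (median 1.16) and between 32.4 and 42.4 CPM in the 8 cortices (median 36.5), with a difference of -5.04 ± 0.15. Genes that both principal cell types use differed less. Camk2a, the alpha subunit of the calcium/calmodulin kinase II, had a difference of -1.28 ± 0.03, and Nrgn, a calmodulin-binding postsynaptic protein, of -0.70 ± 0.04. Among the genes with the highest FPKM in cortex, Nrgn was the only nuclear-encoded messenger RNA of the first 10, at 1136 ± 65.1 FPKM; in striatum that place was held by Fth1, the ferritin heavy chain, at 1217 ± 68.8 FPKM (SD, n = 8 each).

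Markers of cortical layers did not all point to cortex. Of 14 genes of layers 2 to 4, 11 were lower in striatum and 3 higher. Cux2, a homeobox factor of upper layers, lay between 10.8 and 15.7 CPM in the 8 striata (median 13.0) and between 204 and 245 CPM in the 8 cortices (median 215), with a log2 difference of -4.09 ± 0.05 (adjusted p = 4.3e-18), and Rorb, the nuclear receptor of layer 4, had a difference of -2.51 ± 0.06. Of 15 layer 5 genes, 9 were lower and 6 higher. Fezf2, which specifies subcortical projection neurons, had a difference of -3.53 ± 0.07 and the natriuretic peptide receptor Npr3 of -5.18 ± 0.19. Bcl11b, the CTIP2 factor used as a layer 5 marker, was higher in striatum, where it lay between 470.3 and 532 CPM in the 8 striata (median 511), than in cortex, where it lay between 37.5 and 59.3 CPM in the 8 cortices (median 46.2), with a log2 difference of 3.44 ± 0.07 (adjusted p = 1.2e-11). Pcp4, a calmodulin regulator, and Crym, a thyroid hormone binding protein, were also higher in striatum, at 2.90 ± 0.10 and 3.03 ± 0.08. Of 14 layer 6 and 6b genes, 8 were higher in striatum and 6 lower. Foxp2, the forkhead factor of layer 6, was among the former (4.47 ± 0.16), as were the synaptotagmin Syt6 (4.67 ± 0.12) and the kappa-opioid receptor Oprk1 (4.39 ± 0.10). Nr4a2, the orphan nuclear receptor of layer 6b and claustrum (-4.57 ± 0.16), Cplx3, a complexin (-4.33 ± 0.09), and the neurotensin receptor Ntsr1 (-2.31 ± 0.11) were lower in striatum.

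Interneuron genes lay on both sides. Of 20 genes, 6 were higher in striatum, 11 lower and 3 not called. Vip, the peptide of 1 cortical interneuron class, lay between 0.190 and 0.592 CPM in the 8 striata (median 0.289) and between 48.9 and 64.1 CPM in the 8 cortices (median 55.1), with a log2 difference of -7.34 ± 0.08 (adjusted p = 1.7e-22). Pvalb, the calcium buffer of fast-spiking cells, lay between 4.54 and 9.04 CPM in the 8 striata (median 7.06) and between 42.6 and 60.8 CPM in the 8 cortices (median 53.7), with a log2 difference of -2.94 ± 0.11 (adjusted p = 4.0e-09). Sst, somatostatin, lay between 98.3 and 111 CPM in the 8 striata (median 107) and between 95.1 and 121 CPM in the 8 cortices (median 103); the tissues overlapped and the difference was not called (log2 difference 0.02, SE 0.04, adjusted p = 0.64; 95% interval -0.07 to 0.11). Of other genes of striatal somatostatin cells, Nos1, the neuronal nitric oxide synthase, and Chodl were higher in striatum (1.77 ± 0.04 and 2.52 ± 0.14) and Npy was lower (-0.69 ± 0.11). The synthesis and transport of GABA, the transmitter of all these cells and of MSNs, gave smaller differences. Of 10 genes of inhibitory neuron synthesis and transport, 7 were higher in striatum, 5 of them at least 2-fold, and 3 lower, 1 of them at least 2-fold. On the higher side, the GABA-synthesising enzyme genes Gad2 and Gad1 had differences of 1.60 ± 0.03 and 0.59 ± 0.03, and the vesicular transporter Slc32a1 of 1.73 ± 0.03. Gad1 stood in cortex at 57.7 ± 3.93 FPKM against 86.8 ± 4.17 in striatum (SD, n = 8 each).

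**Figure D3:**
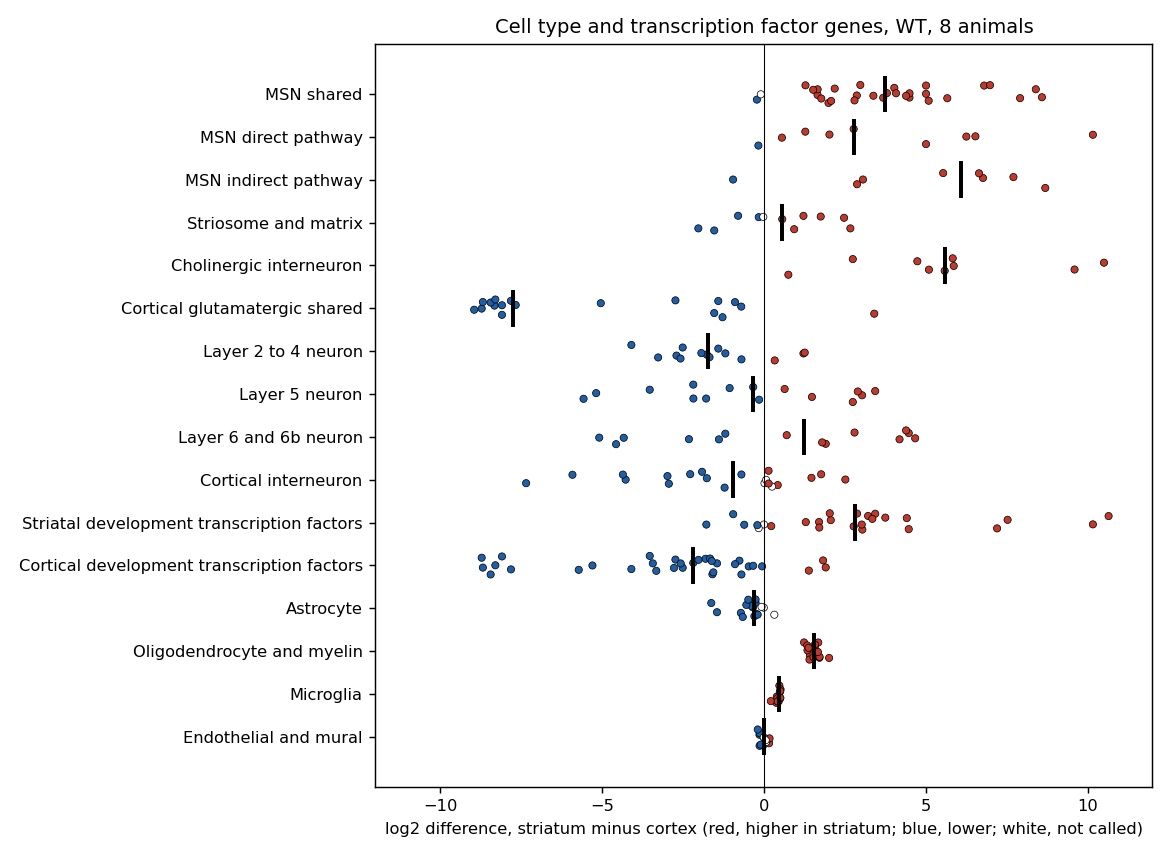
Log2 difference, striatum minus cortex, of every tested gene of 16 lists of neuron types, transcription factors and glia, 1 point per gene, with the list median as a black bar. The shared MSN and cholinergic lists lie mostly on the positive side and the cortical glutamatergic list mostly on the negative side; points of the microglial and endothelial lists lie close to 0.

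Transcription factors of ventral and dorsal forebrain development lay mostly on opposite sides. Of 26 tested factors of striatal development, 20 were higher in striatum, 19 of them at least 2-fold, 4 were lower and 2 were not called. Rxrg, a retinoid X receptor, lay between 131 and 185 CPM in the 8 striata (median 153) and between 0.752 and 1.46 CPM in the 8 cortices (median 1.01), with a log2 difference of 7.20 ± 0.05 (adjusted p = 2.4e-25). Meis2, a TALE homeobox factor of the lateral ganglionic eminence, lay between 525 and 597 CPM in the 8 striata (median 568) and between 55.2 and 77.3 CPM in the 8 cortices (median 70.7), with a log2 difference of 3.04 ± 0.04 (adjusted p = 9.5e-22). Foxp1 had a difference of 1.70 ± 0.03, the zinc-finger factor Sp9 of indirect-pathway neurons of 2.88 ± 0.05, Pbx3 of 3.75 ± 0.04 and Dlx6 of 3.35 ± 0.05. Members of the Dlx family did not move together: Dlx5 was higher in striatum (2.07 ± 0.05) and Dlx1 lower (-1.39 ± 0.19; -1.23 ± 0.11 without animal 14-4). Bcl11a was lower (-0.61 ± 0.03). Of 33 tested factors of cortical development, 30 were lower in striatum, 24 of them at least 2-fold, and Tle4, Pou3f1 and Lmo3 were higher (1.91 ± 0.07, 1.83 ± 0.08 and 1.39 ± 0.04). Tbr1, the T-box factor of early-born neurons, lay between 0.371 and 0.832 CPM in the 8 striata (median 0.594) and between 149 and 177 CPM in the 8 cortices (median 158), with a log2 difference of -8.09 ± 0.06 (adjusted p = 2.0e-24). Neurod6, a factor of postmitotic excitatory neurons, lay between 0.0422 and 0.350 CPM in the 8 striata (median 0.228) and between 59.6 and 78.6 CPM in the 8 cortices (median 73.0), with a log2 difference of -8.44 ± 0.10 (adjusted p = 3.9e-19). Emx1, the homeobox factor of the dorsal telencephalon, lay between 0.0247 and 0.213 CPM in the 8 striata (median 0.109) and between 24.9 and 28.8 CPM in the 8 cortices (median 27.2), with a log2 difference of -7.81 ± 0.11 (adjusted p = 1.4e-21). No striatal library reached the cortical range for these 3 genes. Mef2c, a factor of activity-dependent synapse remodelling, was expressed in both tissues with a difference of -2.73 ± 0.03, and Pax6, a factor of cortical progenitors, differed by -0.47 ± 0.06. Of 12 homeobox genes of hindbrain and spinal cord, 1 passed the filter (En2, at 1.08 and 0.404 CPM on average), and the 10 Hox genes of the list stood at 0.00822 CPM or less on average in both tissues.

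The E-box letters CAGATG and their complement CATCTG, the sequence that NEUROD-type basic helix-loop-helix proteins prefer, were looked for in promoters because Neurod1, Neurod2 and Neurod6 were among the largest differences. In the 250 bases before the start, 13.2% of 1748 promoters of genes at least 2-fold higher in cortex held them on either strand, against 12.7% of 1264 for striatum and 10.7% of 15379 for all genes tested (RefSeq, GRCm38.p6; 1307 of 1989, 977 of 1642 and 12037 of 18235 genes had an entry). The cAMP response element TGACGTCA, a palindrome that does not overlap these letters, stood in 1.72%, 1.19% and 2.43%. A match is a description of letters and not a binding site. The promoters of Neurod2, Cck, Rgs9 and Pde10a are shown because they hold the letters in genes of opposite direction, each running from 250 bases to 1 base before the start, 5′ to 3′ on the gene's strand, with the E-box letters in capitals. They lie at chr11:98329646-98329895 for Neurod2, chr9:121495695-121495944 for Cck, chr11:109298182-109298431 for Rgs9 and chr17:8801495-8801744 for Pde10a, the first 3 on the minus strand and the last on the plus strand.
Neurod2, higher in cortex: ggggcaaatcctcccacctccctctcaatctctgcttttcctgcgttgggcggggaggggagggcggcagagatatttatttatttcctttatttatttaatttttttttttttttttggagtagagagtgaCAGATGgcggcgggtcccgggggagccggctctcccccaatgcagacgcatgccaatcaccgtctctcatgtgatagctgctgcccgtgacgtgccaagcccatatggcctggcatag
Cck, higher in cortex: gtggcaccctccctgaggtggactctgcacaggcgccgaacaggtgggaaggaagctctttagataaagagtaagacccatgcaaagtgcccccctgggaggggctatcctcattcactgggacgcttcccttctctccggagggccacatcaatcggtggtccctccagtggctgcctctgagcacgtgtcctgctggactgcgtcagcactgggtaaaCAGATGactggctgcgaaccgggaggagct
Rgs9, higher in striatum: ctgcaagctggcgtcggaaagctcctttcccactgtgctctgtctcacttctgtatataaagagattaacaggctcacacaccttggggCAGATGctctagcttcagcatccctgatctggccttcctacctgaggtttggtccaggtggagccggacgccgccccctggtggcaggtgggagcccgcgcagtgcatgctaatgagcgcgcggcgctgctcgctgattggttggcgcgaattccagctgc
Pde10a, higher in striatum: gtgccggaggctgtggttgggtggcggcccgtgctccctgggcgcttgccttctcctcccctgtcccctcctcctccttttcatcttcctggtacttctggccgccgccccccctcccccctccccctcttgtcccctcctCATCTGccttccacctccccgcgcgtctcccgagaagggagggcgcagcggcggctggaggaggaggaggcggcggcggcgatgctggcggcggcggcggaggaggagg
The capitals begin 118 bases before the start in Neurod2, 30 in Cck, 161 in Rgs9 and 109 in Pde10a. Neurod2 lay between 0.173 and 0.561 CPM in the 8 striata (median 0.310) and between 102 and 118 CPM in the 8 cortices (median 112) and Cck, the cholecystokinin precursor, lay between 3.65 and 5.46 CPM in the 8 striata (median 4.24) and between 245 and 288 CPM in the 8 cortices (median 265). Rgs9 and Pde10a had the opposite order, as given above. These promoters were chosen for holding the letters, so they do not show how often genes of either direction hold them.

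Genes of dopamine signalling, the input that MSNs read, were mostly higher in striatum. Of 24 tested genes, 19 were higher in striatum and 5 lower. Receptors differed strongly: beside Drd1 and Drd2, Drd3 lay between 1.35 and 2.39 CPM in the 8 striata (median 1.66) and had 0 to 1 counts per cortex, and Drd5 had a difference of 1.90 ± 0.12, while Drd4, at 0.196 ± 0.0470 CPM in striatum and 0.496 ± 0.169 CPM in cortex (SD, n = 8 each), was lower (-1.33 ± 0.24). Both stimulatory G alpha subunits that couple the D1 receptor to cyclase differed, in opposite directions. Gnas lay between 268 and 297 CPM in the 8 striata (median 282) and between 966 and 1142 CPM in the 8 cortices (median 988), with a log2 difference of -1.84 ± 0.02 (adjusted p = 6.2e-22), and Gnal lay between 979.9 and 1095 CPM in the 8 striata (median 1043) and between 134 and 153 CPM in the 8 cortices (median 141), with a log2 difference of 2.87 ± 0.02 (adjusted p = 1.2e-24). Per length, Gnal stood at 180.0 ± 5.43 and Gnas at 25.1 ± 0.958 FPKM in striatum, and at 24.7 ± 0.932 and 90.4 ± 4.90 FPKM in cortex (SD, n = 8 each). The enzymes that break dopamine down differed little, with Maob at 0.32 ± 0.04 and Maoa at 0.13 ± 0.03. Th, the first enzyme of dopamine synthesis, lay between 6.96 and 9.27 CPM in the 8 striata (median 7.59) and between 0.167 and 1.03 CPM in the 8 cortices (median 0.500), with a difference of 3.86 ± 0.16, and the dopamine transporter gene Slc6a3, a marker of midbrain dopamine cells, was below the filter, at 0.0817 CPM on average in striatum.

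Cyclic nucleotide genes lay on both sides. Of 13 tested cyclases, 6 were higher in striatum, 6 lower and 1 not called, near the shares of 39.4% and 39.1% over all genes. Adcy5 lay between 1894 and 2079 CPM in the 8 striata (median 1958) and between 113 and 129 CPM in the 8 cortices (median 120.3), with a log2 difference of 4.03 ± 0.03 (adjusted p = 1.1e-24). Adcy1, a calcium-stimulated cyclase, lay between 302 and 354 CPM in the 8 striata (median 326) and between 1342 and 1497 CPM in the 8 cortices (median 1427), with a log2 difference of -2.14 ± 0.03 (adjusted p = 3.3e-20). The other calcium-stimulated cyclase, Adcy8, had a difference of -2.91 ± 0.06, Adcy2 of -1.80 ± 0.02 and Adcy6 of -1.79 ± 0.03. The subunits of the nitric oxide receptor guanylyl cyclase, Gucy1a3 and Gucy1b3, were higher in striatum (0.67 ± 0.03 and 0.44 ± 0.03). Of 19 phosphodiesterases, 11 were higher in striatum and 8 lower. Beside Pde10a, the former included Pde1b (3.69 ± 0.03), Pde1c (3.32 ± 0.06), Pde7b (2.65 ± 0.03), Pde3a (2.82 ± 0.08) and Pde2a (1.66 ± 0.03). The latter included Pde1a (-2.75 ± 0.08), Pde5a (-2.56 ± 0.07) and Pde11a (-2.29 ± 0.10). The 3 genes of the calmodulin-activated PDE1 group thus lay on both sides: Pde1a lay between 28.0 and 40.8 CPM in the 8 striata (median 30.8) and between 182 and 236 CPM in the 8 cortices (median 207), the reverse of Pde1b, which lay between 1753 and 1895 CPM in the 8 striata (median 1863) and between 129 and 156 CPM in the 8 cortices (median 147). Neither gene overlapped between the tissues.

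Among 18 RGS proteins, which shorten G protein signals, 10 were higher in striatum, 6 lower and 2 not called. Rgs2 (2.15 ± 0.05), Rgs8 (1.71 ± 0.03) and Rgs14 (1.54 ± 0.06) followed Rgs9, while Rgs6 (-2.16 ± 0.03), Rgs16 (-1.73 ± 0.07) and Rgs7 (-1.13 ± 0.02) were lower. Gnb5, the G beta subunit that pairs with the R7 group to which Rgs6, Rgs7, Rgs9 and Rgs11 belong, was higher in striatum (1.42 ± 0.02), as was their membrane anchor Rgs7bp (0.95 ± 0.03). Per length, the R7 members differed in order. In striatum Rgs9 led at 139 ± 5.14 FPKM before Rgs11 at 13.1 ± 1.28 and Rgs7 at 9.17 ± 0.395, and in cortex Rgs7 led at 20.0 ± 1.23 before Rgs6 at 11.2 ± 0.422 and Rgs11 at 10.7 ± 1.25, which did not differ beyond their spread, with Rgs9 last at 1.24 ± 0.106 (SD, n = 8 each). Small G protein regulators gave 7 of 18 genes higher and 10 lower. Rasgrp2, which activates Rap1 (4.39 ± 0.03), and Rasd2, the striatal GTPase Rhes (3.38 ± 0.05), were the most striatal, and Rasgrf2, a calcium-dependent Ras activator, the most cortical (-3.27 ± 0.07).

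Neuropeptide genes and their receptors lay on both sides within families. Of 8 opioid genes, 6 were higher in striatum and 2 lower. Penk stood at 1044 ± 72.2 FPKM and Pdyn at 33.1 ± 2.64 FPKM in striatum (SD, n = 8 each). Among receptors, the kappa receptor Oprk1 lay between 39.7 and 52.7 CPM in the 8 striata (median 44.2) and between 1.31 and 2.88 CPM in the 8 cortices (median 2.13), with a log2 difference of 4.39 ± 0.10 (adjusted p = 1.1e-12), the delta receptor Oprd1 had a difference of 0.65 ± 0.04, and the nociceptin receptor Oprl1 was lower (-0.99 ± 0.04) together with Pnoc, the nociceptin precursor (-4.35 ± 0.17). Of 17 other peptide genes, 4 were higher and 10 lower in striatum. Tac1 was on the first side and Tac2, the neurokinin B precursor, on the second (-4.27 ± 0.18), and their receptors Tacr1 and Tacr3 were both higher in striatum (5.52 ± 0.08 and 3.10 ± 0.11). Lower in striatum were Cck (-5.91 ± 0.05), Adcyap1, the PACAP precursor (-5.91 ± 0.10), and Crh, corticotropin-releasing hormone (-2.98 ± 0.17). Grp, gastrin-releasing peptide, had 0 to 4 counts per striatum and 82 to 182 per cortex, and Cort, cortistatin, 1 to 7 and 72 to 183. The CCK-B receptor gene Cckbr was lower too, between 3.15 and 4.71 CPM in the 8 striata (median 3.41) and between 56.5 and 80.1 CPM in the 8 cortices (median 75.7), with a log2 difference of -4.32 ± 0.08 (adjusted p = 2.7e-13). Of 26 peptide receptor genes, 17 were lower in striatum, 7 higher and 2 not called, and the somatostatin receptors differed by up to -5.65 ± 0.07 for Sstr3, with Sstr5 the one member higher in striatum (37 to 66 counts per library against 0 to 6 in cortex).

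Receptors for other modulators also lay on both sides. Of 12 tested serotonin receptors, 5 were higher in striatum, 6 lower and 1 not called. Htr1b, an inhibitory receptor on MSN terminals, lay between 108 and 176 CPM in the 8 striata (median 143) and between 7.15 and 10.6 CPM in the 8 cortices (median 8.57), with a log2 difference of 4.03 ± 0.07 (adjusted p = 1.6e-14). Htr1d had a difference of 5.67 ± 0.08, Htr4 of 2.89 ± 0.11 and Htr2c of 2.08 ± 0.17; Htr7 (-2.92 ± 0.06), Htr1a (-2.82 ± 0.07) and Htr5a (-2.04 ± 0.04) were lower. Htr2a lay between 9.11 and 16.7 CPM in the 8 striata (median 13.8) and between 12.3 and 18.8 CPM in the 8 cortices (median 16.5), with overlap, and was not called (log2 difference -0.30, SE 0.14, adjusted p = 0.076; 95% interval -0.63 to 0.03). It was called lower in striatum without animal 14-4 (log2 difference -0.41, SE 0.10, adjusted p = 0.0027) and under 6 of the other alternatives. Of 9 adrenergic receptors, 7 were lower in striatum, and Adra2b and Adra2c were higher (64 to 130 against 1 to 8 counts per library for the first, and a log2 difference of 2.01 ± 0.05 for the second). Adra1d lay between 0.235 and 0.761 CPM in the 8 striata (median 0.375) and between 44.1 and 55.7 CPM in the 8 cortices (median 52.8), with a log2 difference of -6.91 ± 0.10 (adjusted p = 2.7e-16). Of 13 acetylcholine receptors, 8 were lower and 5 higher. The muscarinic M4 gene Chrm4 was higher (1.28 ± 0.04) and Chrm3 lower (-2.82 ± 0.06), while Chrm1, the most abundant in cortex per length at 39.5 ± 3.33 FPKM (SD, n = 8), differed by -0.27 ± 0.04. Of the nicotinic genes, Chrnb3 had 0 to 3 counts per striatum and 154 to 346 per cortex. Among 15 purine genes, 8 were higher and 4 lower; Adora1, the inhibitory adenosine receptor, was lower in striatum (-0.69 ± 0.03), and Nt5e, the enzyme that makes extracellular adenosine, was higher (2.64 ± 0.07). In the endocannabinoid system the receptor gene Cnr1 lay between 409.5 and 533 CPM in the 8 striata (median 480.4) and between 133 and 159 CPM in the 8 cortices (median 155), with a log2 difference of 1.63 ± 0.04 (adjusted p = 3.5e-16). It was higher in striatum, and all 8 tested genes for its ligands' synthesis, breakdown or binding partners were lower, from Abhd12 (-0.21 ± 0.03) to the hydrolase Faah (-3.14 ± 0.04).

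Glutamate and GABA receptor subunits showed smaller differences with a few exceptions. Of 18 ionotropic glutamate receptor genes, 10 were higher in striatum, 7 lower and 1 not called. Grin1, the obligatory NMDA receptor subunit, lay between 663 and 762 CPM in the 8 striata (median 710.4) and between 689.6 and 778 CPM in the 8 cortices (median 706) and was not called (log2 difference -0.01, SE 0.03, adjusted p = 0.84; 95% interval -0.07 to 0.06). Grin2a was lower in striatum (-1.15 ± 0.03) and Grin2b higher in 6 of 8 animals (0.18 ± 0.05; not called in females alone, 0.11, adjusted p = 0.22); the AMPA subunit Gria1 was higher (0.97 ± 0.02) and the kainate subunits Grik2 and Grik1 lay on opposite sides (2.01 ± 0.03 and -2.02 ± 0.08). Of 7 metabotropic receptors, 5 were higher and 2 lower. Grm5, which couples to calcium release, had a difference of 1.50 ± 0.02 and Grm4 of 1.88 ± 0.04, while Grm2, a presynaptic receptor, lay between 1.01 and 1.62 CPM in the 8 striata (median 1.06) and between 71.9 and 80.9 CPM in the 8 cortices (median 76.0), with a log2 difference of -6.06 ± 0.06 (adjusted p = 9.6e-23). Of 15 tested GABA receptor genes, 8 were higher, 6 lower and 1 not called. Gabra4 (0.92 ± 0.03) and Gabrd (0.83 ± 0.03), subunits of tonic receptors, were higher, and Gabra3 (-2.45 ± 0.04) lower in striatum. The GABA-B receptor needs both its subunits at the surface; Gabbr1 differed by 0.27 ± 0.02 and Gabbr2 by -2.51 ± 0.03.

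**Figure D4:**
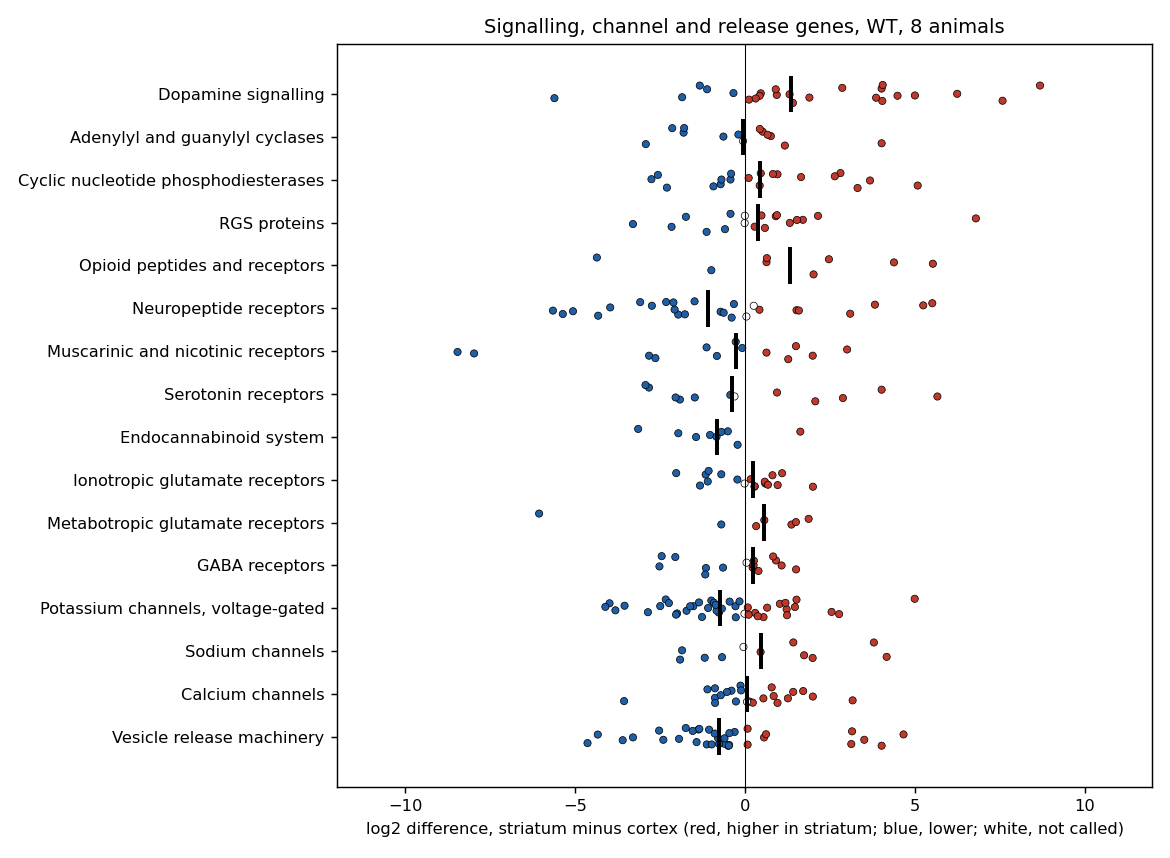
Log2 difference, striatum minus cortex, of every tested gene of 16 lists of receptors, second messengers, channels and vesicle proteins, 1 point per gene, with the list median as a black bar. Most lists hold points on both sides of 0; the dopamine list lies mostly above it and the endocannabinoid and vesicle release lists mostly below.

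Channel genes lay on both sides. Of 42 tested voltage-gated potassium channel genes, 26 were lower in striatum, 15 higher and 1 not called. Of the Kv3 group that allows fast spiking, the genes given here were lower: Kcnc1 (-1.35 ± 0.03), Kcnc2 (-3.54 ± 0.16) and Kcnc4, which lay between 4.60 and 6.07 CPM in the 8 striata (median 5.41) and between 81.1 and 90.4 CPM in the 8 cortices (median 82.8), with a log2 difference of -3.98 ± 0.04 (adjusted p = 5.2e-23). Kcna5 lay between 32.7 and 47.6 CPM in the 8 striata (median 39.9) and between 0.781 and 1.65 CPM in the 8 cortices (median 1.27), with a log2 difference of 5.00 ± 0.05 (adjusted p = 3.1e-23), and Kcna4 (2.55 ± 0.03) and Kcnd2 (1.23 ± 0.02), channels of A-type currents, were higher with it. Inward rectifiers of the Kir2 group, which hold MSNs at a negative resting potential, were higher in striatum (Kcnj2 2.43 ± 0.04, Kcnj4 1.12 ± 0.03), and the G-protein-gated Kir3 group was lower (Kcnj3 -3.42 ± 0.04, Kcnj9 -2.65 ± 0.03, Kcnj6 -5.60 ± 0.06). Kcnj6 lay between 0.631 and 0.815 CPM in the 8 striata (median 0.731) and between 32.3 and 42.2 CPM in the 8 cortices (median 34.6), without overlap. Of 11 tested sodium channel genes, 6 were higher and 4 lower, with Scn9a (4.18 ± 0.08) and Scn3a (1.75 ± 0.03) on the striatal and Scn1a (-1.18 ± 0.06) on the cortical side. Of 23 calcium channel genes, 11 were higher, 11 lower and 1 not called; the T-type genes split into Cacna1h, higher (2.00 ± 0.03), Cacna1g, lower (-3.55 ± 0.06), and Cacna1i, higher in 7 of 8 animals (0.14 ± 0.04; not called in females alone, 0.036, adjusted p = 0.34).

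Genes of calcium stores and kinases also lay on both sides. Ryr3 and Ryr1, ryanodine receptors that release stored calcium, were higher in striatum (4.09 ± 0.05 and 2.32 ± 0.09) and Ryr2 lower (-1.34 ± 0.04). Per length, Ryr3 stood at 22.4 ± 1.57 FPKM in striatum and Ryr2 at 22.4 ± 1.44 FPKM in cortex (SD, n = 8 each). Of 23 genes of stores and pumps, 8 were higher, 12 lower and 3 not called. Ncald, the neurocalcin gene, was lower (-3.15 ± 0.03) while the related Hpca was higher. Of 24 calcium/calmodulin and C-type kinase genes, 12 were higher and 11 lower. Camk2b was higher (0.99 ± 0.02) and Camk2a lower in striatum, so that the ratio of the alpha to the beta subunit differed: Camk2a stood at 233 ± 8.27 and Camk2b at 193 ± 4.20 FPKM in striatum, against 566 ± 21.8 and 97.4 ± 3.83 FPKM in cortex (SD, n = 8 each). Prkch, protein kinase C eta, lay between 54.5 and 63.8 CPM in the 8 striata (median 58.5) and between 2.96 and 3.97 CPM in the 8 cortices (median 3.51), with a log2 difference of 4.08 ± 0.05 (adjusted p = 3.5e-22), and Stk32a, a serine/threonine kinase, had a difference of 4.92 ± 0.05.

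Activity-regulated genes, which follow recent firing, varied between animals. Of 26, 13 were lower in striatum, 4 higher and 9 not called. Bdnf, brain-derived neurotrophic factor, which reaches the striatum as protein from cortical axons, lay between 0.198 and 0.542 CPM in the 8 striata (median 0.328) and between 31.4 and 48.8 CPM in the 8 cortices (median 36.6), with a log2 difference of -6.68 ± 0.08 (adjusted p = 8.2e-22). Fos stood at 21.4 ± 6.29 CPM in striatum and 77.1 ± 32.0 CPM in cortex (SD, n = 8 each), with a log2 difference of -1.82 ± 0.13 (adjusted p = 2.1e-06), and Arc lay between 175 and 333 CPM in the 8 striata (median 243) and between 485 and 992 CPM in the 8 cortices (median 575), with a log2 difference of -1.41 ± 0.08 (adjusted p = 3.2e-07). The tissues did not overlap for these 3. Npas4 lay between 30.3 and 52.1 CPM in the 8 striata (median 42.4) and between 26.0 and 113 CPM in the 8 cortices (median 36.7); its highest value, 113 CPM, was that of the cortex of animal 14-4, and the difference was not called (log2 difference -0.10, SE 0.19, adjusted p = 0.64; without that animal log2 difference 0.06, SE 0.12, adjusted p = 0.65). Btg2 was lower (log2 difference -1.35, SE 0.20, adjusted p = 3.3e-04; without that animal log2 difference -1.18, SE 0.13, adjusted p = 6.4e-05). Egr1 was lower in striatum in 7 of 8 animals (-0.28 ± 0.08; not called without the animal block, adjusted p = 0.074), and Egr4 higher in 8 of 8 (0.71 ± 0.11). Egr3, Fosb, Junb and Nr4a3 were not called, with differences of 0.03 ± 0.09, 0.10 ± 0.17, -0.03 ± 0.14 and 0.08 ± 0.08; without animal 14-4, Fosb and Nr4a3 passed as higher in striatum (0.25 ± 0.10 and 0.14 ± 0.06).

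Trophic factors and their receptors did not share a direction. Of 14 tested genes, 6 were higher in striatum and 8 lower. Gdnf, the glial-line-derived factor, had 320 to 461 counts per striatum and 0 to 5 per cortex. Its receptor Gfra1 was higher in striatum (1.11 ± 0.03) and Gfra2, the neurturin receptor, lower (-4.56 ± 0.06). The BDNF receptor Ntrk2 differed by -0.34 ± 0.03. In the retinoid pathway, where vitamin A derivatives act through RAR and RXR partners, 9 of 16 genes were higher, 5 lower and 2 not called. Rarb lay between 142 and 172 CPM in the 8 striata (median 153) and between 6.49 and 8.68 CPM in the 8 cortices (median 7.15), with a log2 difference of 4.41 ± 0.04 (adjusted p = 5.9e-24). The binding protein Crabp1 was higher in striatum too (194 to 360 counts per library against 0 to 3 in cortex), and Rara (-1.83 ± 0.07) with the retinoic acid synthesising enzymes Aldh1a3 (1 to 8 counts per striatum and 69 to 116 per cortex) and Aldh1a2 (-2.38 ± 0.10) lay on the cortical side.

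Guidance and adhesion genes were split without an overall direction. Of 18 Eph and ephrin genes, 6 were higher and 10 lower, with the ephrin Efnb3 the most striatal (2.36 ± 0.02) and the receptor Ephb3 the most cortical (-2.78 ± 0.05). Of 33 semaphorin, plexin, netrin and slit genes, 13 were higher and 18 lower. The netrin receptor Dcc had a difference of 2.27 ± 0.04, its relative Unc5d of -3.37 ± 0.07, the semaphorin receptor Plxna1 of -2.55 ± 0.03, and the repellents Slit3 and Slit2 of 1.11 ± 0.03 and -2.80 ± 0.08. Of 32 Wnt pathway genes, 11 were higher and 17 lower. Wnt8b lay between 1.72 and 5.91 CPM in the 8 striata (median 3.01) and had 0 to 2 counts per cortex, whereas Wnt10a (-4.35 ± 0.09) was lower in striatum. Wnt9a lay between 0.346 and 0.723 CPM in the 8 striata (median 0.573) and between 25.7 and 32.6 CPM in the 8 cortices (median 28.2), with a log2 difference of -5.63 ± 0.07 (adjusted p = 3.9e-22). Of 29 synaptic organisers, 11 were higher, 14 lower and 4 not called. The cerebellins Cbln2 and Cbln4 (-5.32 ± 0.08 and -3.79 ± 0.10) and the pentraxins Nptx1 and Nptxr (-3.60 ± 0.04 and -3.19 ± 0.04) were lower; the cadherins Cdh9 and Cdh13 (2.46 ± 0.13 and 1.92 ± 0.05) were higher in striatum.

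The release machinery was lower in striatum for most genes. Of 34, 25 were lower, 9 higher and none was without a call. Snap25, a SNARE of the presynaptic membrane, lay between 1265 and 1382 CPM in the 8 striata (median 1323) and between 3194 and 3543 CPM in the 8 cortices (median 3389), with a log2 difference of -1.36 ± 0.03 (adjusted p = 6.2e-19), and Stx1a, its syntaxin partner, between 26.5 and 29.4 CPM in the 8 striata (median 28.3) and between 329 and 365 CPM in the 8 cortices (median 335), with a log2 difference of -3.59 ± 0.03 (adjusted p = 6.9e-25). The calcium sensor Syt1 was lower (-1.05 ± 0.02). Some paralogues lay on opposite sides, Doc2b higher (4.03 ± 0.03) and Doc2a lower (-4.63 ± 0.05), Sv2c higher (3.16 ± 0.05) and Sv2b lower, Unc13c higher (3.52 ± 0.04) and Unc13b lower (-1.94 ± 0.03). Naming members from both ends of a list favours such pairs, and paralogue pairs were not counted.

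Glial and vascular genes moved by class. All 15 myelin genes were higher in striatum, each at least 2-fold, with a median of 1.54. Mbp, myelin basic protein, lay between 2456 and 3035 CPM in the 8 striata (median 2767) and between 846 and 1092 CPM in the 8 cortices (median 963), with a log2 difference of 1.54 ± 0.03 (adjusted p = 6.1e-18), and Mobp between 807 and 1064 CPM in the 8 striata (median 989) and between 205 and 276 CPM in the 8 cortices (median 242), with a log2 difference of 2.01 ± 0.04 (adjusted p = 2.9e-17). The summed level of the list was 5822 to 7291 CPM per striatum and 1881 to 2408 per cortex. Fibre bundles of the internal capsule cross the striatum, and how much white matter each dissection held was not measured. All 10 oligodendrocyte precursor genes were higher as well, with a median of 0.44 and Pdgfra, the defining receptor, at 0.25 ± 0.03. All 12 microglial genes were higher, with differences from 0.22 ± 0.04 for Tmem119 to 0.51 ± 0.05 for Trem2. Of 16 astrocyte genes, 13 were lower in striatum and 3 were not called. Gfap, the intermediate filament of reactive and border astrocytes, lay between 22.4 and 41.8 CPM in the 8 striata (median 24.6) and between 54.3 and 94.2 CPM in the 8 cortices (median 69.5), with a log2 difference of -1.45 ± 0.10 (adjusted p = 1.1e-06), the connexin Gjb6 had a difference of -1.63 ± 0.04, and the glutamate transporters Slc1a2 and Slc1a3 differed by -0.29 ± 0.03 and -0.26 ± 0.03. Of 13 endothelial and mural genes, 3 were higher, 5 lower and 5 not called, and none differed by 2-fold; the 5 lower ones were 1 without animal 27-2, 2 without 11-2, and 3 without 14-2 or 8-4. Flt1, a VEGF receptor of endothelium, lay between 74.0 and 87.3 CPM in the 8 striata (median 82.5) and between 71.5 and 89.8 CPM in the 8 cortices (median 81.1), with a log2 difference of 0.01 ± 0.03 (adjusted p = 0.79; 95% interval -0.06 to 0.07).

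Genes of cells at the tissue edges differed in both directions. All 11 meningeal and fibroblast genes were lower in striatum, each at least 2-fold. Ptgds, the prostaglandin D synthase of the meninges, lay between 56.8 and 85.0 CPM in the 8 striata (median 73.7) and between 415 and 587 CPM in the 8 cortices (median 505), with a log2 difference of -2.81 ± 0.08 (adjusted p = 3.7e-10), and Slc47a1, a transporter of meningeal cells, between 0.0438 and 0.233 CPM in the 8 striata (median 0.0889) and between 3.12 and 8.31 CPM in the 8 cortices (median 5.24), with a log2 difference of -5.53 ± 0.18 (adjusted p = 1.1e-15). The summed list was 100.2 to 124 CPM per striatum and 509 to 723 per cortex. On the other edge, the striatum borders the lateral ventricle. All 6 tested ependymal genes were higher in striatum, also without animal 14-4, Foxj1, the factor of motile cilia, by 1.50 ± 0.12 (1.63 ± 0.07 without animal 14-4). Ccdc153 and Tmem212 did not pass the filter, which asks for 8 libraries above its minimum; the striatum of animal 14-4 held 0.0542 CPM of Tmem212 against 0.636 to 1.58 CPM in the other 7. Choroid plexus genes were few and variable. Ttr, transthyretin, lay between 0.899 and 26.1 CPM in the 8 striata (median 5.64) and between 0.385 and 3.76 CPM in the 8 cortices (median 1.16), with the highest value in the striatum of animal 14-4 (log2 difference 2.17, SE 0.38, adjusted p = 9.1e-04; higher in striatum in 7 of 8 animals; without that animal log2 difference 1.96, SE 0.43, adjusted p = 0.0041), and Kcne2 and Sostdc1, which define that tissue, stood at 0.109 and 0.232 CPM on average in striatum. Whether tissue at the edge contributed to other differences was not tested.

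Genes listed for the neurogenic ventricular wall lay on both sides. Of 10, 6 were higher in striatum and 4 lower. The 4 lower ones were Dcx, Stmn1, Sp8 and Tbr1, and Tbr1 also stands above among the factors of cortical development. Without animal 14-4, Stmn1 and Sp8 had differences of -2.44 ± 0.04 and -1.55 ± 0.15. Top2a lay between 0.253 and 5.10 CPM in the 8 striata (median 3.72) and between 0.230 and 0.551 CPM in the 8 cortices (median 0.408), with a log2 difference of 3.04 ± 0.33 (adjusted p = 1.4e-05; higher in striatum in 7 of 8 animals; without animal 14-4 log2 difference 3.25, SE 0.18, adjusted p = 2.5e-11). Mki67, the Ki-67 antigen of dividing cells, lay between 0.579 and 5.09 CPM in the 8 striata (median 3.82) and between 0.472 and 0.754 CPM in the 8 cortices (median 0.566), with a log2 difference of 2.53 ± 0.23 (adjusted p = 3.7e-07; without animal 14-4 log2 difference 2.71, SE 0.14, adjusted p = 2.3e-12). Igfbpl1 had 56 to 145 counts per striatum and 0 to 3 per cortex, and Sox11 a difference of 0.76 ± 0.09 (0.82 ± 0.08 without that animal), whereas Dcx, the neuroblast microtubule protein, was lower (-0.96 ± 0.11; -0.88 ± 0.07). The counts of 6 higher and 4 lower were the same without animal 14-4. Markers of neighbouring regions had no direction common to all regions, but single lists leaned to 1 side. Of 11 thalamic and habenular genes, 4 were higher in striatum and 6 lower, of 12 genes of globus pallidus and septum 5 and 6, of 12 of hippocampus and claustrum 4 and 8, and of 10 of amygdala and olfactory areas 8 and 2. The median log2 differences were -1.08, -0.16, -1.14 and 2.44 in that order. Of the amygdala and olfactory genes, 6 were at least 2-fold higher in striatum and 1 at least 2-fold lower. Their summed level was 426 to 478 CPM per striatum and 211 to 239 CPM per cortex. Of the thalamic and habenular genes, 2 were at least 2-fold higher in striatum and 6 at least 2-fold lower. Tcf7l2 and Prkcd, by contrast with those 6, had the higher mean in striatum. Tcf7l2 was at 3.95 ± 0.612 and Prkcd at 11.1 ± 1.55 CPM in striatum, against 3.01 ± 0.307 and 7.49 ± 0.617 CPM in cortex (SD, n = 8 each). Of the hippocampal genes, the dentate gene C1ql2 was at 0.731 ± 0.201 CPM in striatum and 1.11 ± 0.493 CPM in cortex, while Prox1 had a log2 difference of 0.43. The call of C1ql2 was lost with all 96 libraries (edgeR adjusted p = 0.105) and in females alone (0.101). Haemoglobin genes were low and varied between animals: Hbb-bs lay between 0.0701 and 6.16 CPM in the 8 striata (median 0.860) and between 0.173 and 7.43 CPM in the 8 cortices (median 1.94).

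Genes tied to Huntington's disease and to repeat expansion differed modestly between the tissues of these WT animals. Of 24 such genes, 12 were higher in striatum, 10 lower and 2 not called, and 1 differed by at least 2-fold. This was Hap1, a huntingtin-associated protein, which lay between 126 and 184 CPM in the 8 striata (median 138) and between 65.9 and 76.5 CPM in the 8 cortices (median 70.3), with a log2 difference of 1.03 ± 0.04 (adjusted p = 4.1e-14). Htt (ENSMUSG00000029104, chromosome 5, 34761740 to 34912534) lay between 202 and 217 CPM in the 8 striata (median 205) and between 209 and 250.3 CPM in the 8 cortices (median 240.3), with a log2 difference of -0.18 ± 0.03 (adjusted p = 4.2e-06); its values overlapped only in part and were lower in striatum in 8 of 8 animals. The mismatch repair genes went both ways. Pms1 (ENSMUSG00000026098, chromosome 1, 53189187 to 53297018) lay between 4.79 and 5.71 CPM in the 8 striata (median 5.26) and between 3.30 and 4.36 CPM in the 8 cortices (median 3.82), with a log2 difference of 0.49 ± 0.08 (adjusted p = 8.1e-06). Mlh3, the gene of a mismatch repair nuclease subunit, lay between 34.9 and 37.0 CPM in the 8 striata (median 36.5) and between 22.9 and 27.5 CPM in the 8 cortices (median 24.5), with a log2 difference of 0.56 ± 0.03 (adjusted p = 1.0e-11). Msh3, which recognises loops in repeats, was higher (0.39 ± 0.04), and Msh6 (-0.19 ± 0.04) and Pms2 (-0.31 ± 0.03) lower in striatum. The nuclease gene Fan1 was higher (0.29 ± 0.04) and the ligase gene Lig1 lower (-0.93 ± 0.06). Per length, Msh3 stood at 2.40 ± 0.169 FPKM in striatum and 1.83 ± 0.111 in cortex (SD, n = 8 each).

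Most differences of housekeeping genes were small. Of 14 genes used as references, 6 were higher in striatum, 1 of them at least 2-fold. Another 7 were lower and 1 was not called, where 78.5% of all genes were called. Actb, beta-actin, was higher (0.50 ± 0.03), and B2m (-0.89 ± 0.03), Tfrc (-0.93 ± 0.02) and Hprt (-0.24 ± 0.02) were lower. Gapdh, at 15.1 and 16.9 CPM on average, was far below its usual rank, and its value is uncertain. It shares sequence with pseudogenes, and whether this lowered its count was not tested. Of 31 nuclear genes of oxidative phosphorylation, 9 were higher, 12 lower and 10 not called, and the largest difference was that of Ndufa1 (0.53 ± 0.04). Of 36 ribosomal protein genes, many of which share sequence with pseudogenes, 24 were higher, 2 lower and 10 not called, with a median of 0.20. Of 13 mitochondrially encoded messenger RNAs, 7 were higher and 6 not called. mt-Cytb lay between 8542 and 10328 CPM in the 8 striata (median 9243) and between 5466 and 6389.8 CPM in the 8 cortices (median 5757), with a log2 difference of 0.69 ± 0.02 (adjusted p = 3.4e-15), and mt-Co1 had a difference of 0.32 ± 0.03. The 6 without a call stood at 11.1 CPM or less on average, beside 6 genes of the same genome at 2729.8 CPM or more. The counts of the former are therefore uncertain. Genes with near-identical nuclear copies can lose reads in counting, and whether this occurred here was not tested.

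The share of genes past 2-fold differed between gene classes. At least 2-fold, 19.2% of 14773 tested protein-coding genes were called, 36.9% of 555 lincRNAs, 36.0% of 534 antisense genes, 31.5% of 317 processed transcripts and 5.73% of 1030 processed pseudogenes. These shares are descriptions, since the classes differ in level and in overlap with other genes. The genes whose difference varied most between animals, among those at 5 CPM or more in both tissues and off the Y chromosome (a rule chosen after the values were seen), were largely of such uncertain kinds. Mir6236 varied with an SD of 0.67 log2 units and Gm15446 with 0.58; the latter lay between 0.234 and 40.6 CPM in the 8 striata (median 9.48) and between 0.108 and 31.2 CPM in the 8 cortices (median 6.39), so that animals differed more than tissues. Dlx1 (0.57), Btg2 (0.56) and Npas4 (0.52) were the known neuronal genes among the first 15.

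The tissue difference was measured again in animals that the WT fit had not used. A Pms1 het animal shared its first code number with WT animals, so the groups may not be fully independent. In the 8 Pms1 het animals, fitted alone, 14352 of 18047 genes (79.5%) were called, 7307 higher in striatum and 7045 lower. Of the WT calls, 13154 had the same direction there, 91.9% of the 14319 in WT and 91.7% of those in Pms1 het, and 6 had the opposite one. At least 2-fold, 3243 genes were shared, 89.3% of 3632 in WT and 88.8% of 3654 in Pms1 het, and none had the opposite direction; 3206 of the 3632 had log2 differences within 0.5 of each other. Drd1 had a difference of 5.99 in Pms1 het (SE 0.05), Penk of 5.83 (SE 0.03) and Slc17a7 of -8.33 (SE 0.10). Tested within 1 fit of both genotypes, the difference between striatum and cortex differed from WT for 1 gene in Pms1 het (0.00551% of those tested) and for 2 genes in Pms1 null (0.0109%). The first was Gm14703, an antisense gene at 0.545 ± 0.395 CPM in WT cortex (SD, n = 8). The others were Bcl9l, a Wnt co-activator whose difference was larger by 0.26 (SE 0.05, adjusted p = 0.037), and Stra6. Stra6, the receptor for retinol binding protein, lay between 5.06 and 11.3 CPM in the 8 striata (median 7.68) and between 5.49 and 9.62 CPM in the 8 cortices (median 6.37) in WT without a call, and its difference was larger by 0.52 in Pms1 null (SE 0.09, adjusted p = 0.037). At an unadjusted p below 0.05 there were 2003 and 1963 genes; DESeq2 called 152 and 111, and without the animal as a block 0 genes were called for either, so these calls were lost.

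**Figure D5:**
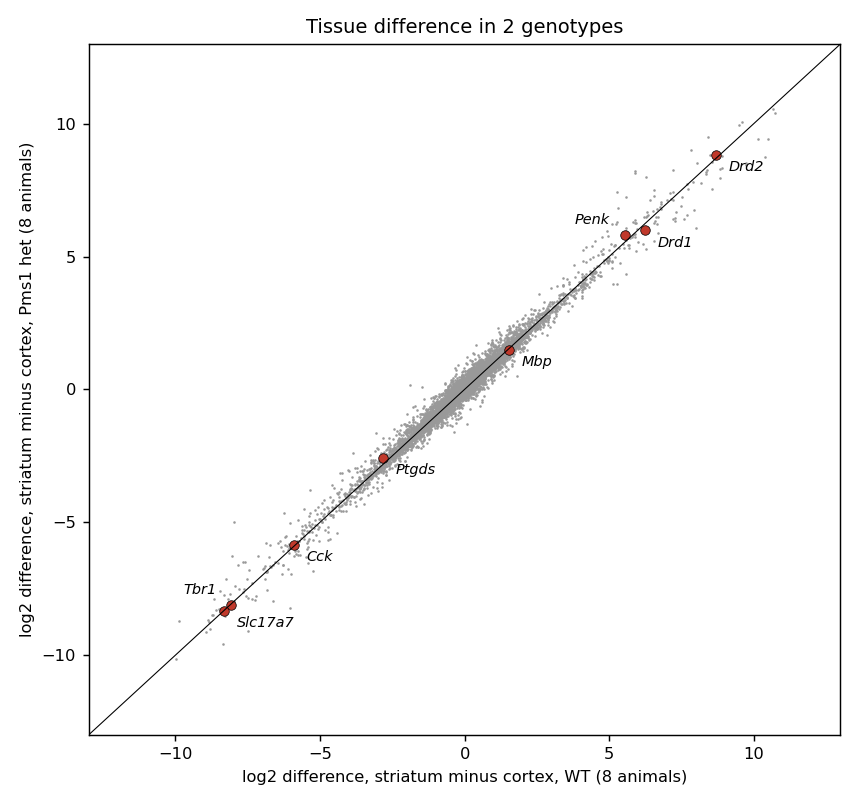
Log2 difference, striatum minus cortex, of each gene tested in both genotypes, WT (horizontal) and Pms1 het (vertical), each fitted on its own 8 animals with no library in common. The points follow the diagonal; marked are Drd1, Drd2, Penk, Slc17a7, Tbr1, Cck, Mbp and Ptgds.

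Few genes had a tissue difference that differed between females and males. The term for sex passed in 5 genes (0.0274%) by edgeR, against 30 by DESeq2 and 0 without the animal as a block; 1450 had an unadjusted p below 0.05. Col25a1, a collagen of neurons, lay on opposite sides, with a log2 difference of -0.31 (SE 0.05) in the 4 females and 0.21 (SE 0.05) in the 4 males (adjusted p of the term 0.023). Rps6ka2, a ribosomal S6 kinase, had 0.13 and -0.24 (adjusted p of the term 0.023). For Egr4 the difference was 0.99 in females and 0.45 in males (adjusted p of the term 0.023). For the estrogen-related receptor Esrrg it was -0.97 and -0.48 (0.023). Egr4 and Esrrg had the same direction in both sexes and a larger difference in females. No first code number was shared between WT females and WT males. A difference between the sexes therefore cannot be told apart from a difference between code numbers.

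In the Q140 knock-in the tissue difference itself differed from WT. In a fit of both genotypes, 1297 genes (7.12%) had a more positive and 1953 (10.7%) a more negative difference between striatum and cortex than in WT, of 18212 tested. Since the WT animals enter both the WT difference and this term, the values are set side by side and not correlated. Of the 30 shared MSN genes, 24 had a more negative term and none a more positive one, with a median term of -0.52. Adcy5 went from 4.03 in WT to 3.41 in Q140 (term -0.62, SE 0.04, adjusted p = 2.8e-10), and Penk from 5.54 to 4.76 (term -0.78, SE 0.14, adjusted p = 0.0012). Stmn2, a neuronal microtubule protein and the gene with the smallest p, went from -2.08 to -1.51 (term 0.56, SE 0.03), and Inpp5j, an inositol phosphatase, from 0.64 to -0.05 (term -0.70, SE 0.04; adjusted p = 8.4e-12 for both). Kcnab1, Zbtb18 and Rps6ka4 had terms of -0.53, -0.63 and -0.68 (adjusted p = 1.9e-10 each). By the same test, 0 of 9 cholinergic, 0 of 15 myelin and 0 of 36 ribosomal protein genes had a term that passed. Their median terms were -0.23, -0.04 and 0.003. With 9 genes, 0 calls does not show that the cholinergic list was unchanged. Of 17 cortical glutamatergic genes 3 were more positive and 2 more negative. More negative terms were not confined to the MSN list. They were found in 7 of 12 microglial genes (median term -0.17) and 6 of 13 endothelial and mural genes (median -0.14). The same held for 16 of 24 calcium/calmodulin and C-type kinase genes, and none of these lists had a more positive term. Of 26 activity-regulated genes, 12 were more negative and 1 more positive. Drd1 had a term of -0.63 (SE 0.09, adjusted p = 3.2e-05), so that its striatal bias in the Q140 animals, 5.63, was below that of WT.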

How the data were processed

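RNA of striatum and cortex from 8 WT mice was sequenced as 16 stranded libraries. The authors deposited a table of read counts per gene for all 96 libraries and a table of FPKM values (fragments scaled by gene length and library size) for the same genes. The submitters' processing notes name STAR 2.7.5c, SAMtools 1.10, HTSeq 0.12.3 and the builds GRCm38 and mm10. How strand was treated in counting, and which annotation was used, was not stated there. Of 48795 genes listed, 48349 had an identifier in GENCODE M21, which gave coordinates; promoters came from RefSeq (GRCm38.p6).

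Counts were fitted with edgeR 4.0.16 (R 4.3.3): TMM, filterByExpr by tissue (18246 genes), animal as a block plus tissue, the robust quasi-likelihood test, Benjamini-Hochberg adjustment and a threshold of 0.05. CPM values are TMM-scaled. The SE is the absolute log2 difference over the root of F; 95% intervals take 7 degrees of freedom. Terms for sex or genotype were fitted in the same way with both groups. Single values had an exact sign-change test over pairs. Alternatives were DESeq2 1.42.0, limma 3.58.1 on log2(FPKM + 0.1) and log2(FPKM + 1), other scalings and filters, no block, all 96 libraries, each sex, no animals of code 27, and each animal left out; lists without animal 14-4 were added after the values were seen. The edgeR script was tested on simulated data. Figures used matplotlib 3.10.9.

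The animal codes come from the titles. Deviations from the tissue means of 1 animal's libraries correlated at 0.206 to 0.307, above 0.1 in 8 of 8 animals. Each striatal library matched the cortex of its own animal best. No pair of libraries of 1 tissue agreed within sampling noise (lowest chi-square per degree of freedom 3.99 of 56 pairs). P-values measure the spread between these animals. Members and lists were chosen with earlier results of these data known. Named genes are Drd1 and Slc17a7, a selection of those at the ends of the ranking by fold (the 15 largest in each direction, called, with at least 1 CPM in the higher tissue and 1 direction in 8 animals), the 4 most extreme members at each end of a list or any member of a small family by its role, the most abundant, the most variable, and those with the smallest p of a sex or genotype term. A few others, such as the genes counted in 1 tissue, were chosen after their values were seen. Some genes are not reported here.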

Additional observations from a re-analysis of the deposited data

Results flagged for a closer look

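The tissue difference itself differed between groups of animals, by the test of the term for group and tissue, in 5 genes between females and males, in 1 gene between WT and Pms1 het, in 2 genes between WT and Pms1 null and in 3250 genes between WT and Q140. Terms are the log2 difference of the named group minus that of WT, or of females minus that of males. Between the sexes they included -0.51 for Col25a1, 0.54 for Egr4, -0.49 for Esrrg and 0.38 for Rps6ka2. In Pms1 null they were 0.52 for Stra6 and 0.26 for Bcl9l. In Q140, where members were named by the lists or by the smallest p-values, they were -0.62 for Adcy5, -0.63 for Drd1, -0.70 for Inpp5j, -0.53 for Kcnab1, -0.78 for Penk, -0.68 for Rps6ka4, 0.56 for Stmn2 and -0.63 for Zbtb18. Their standard errors and adjusted p-values (edgeR) stand with the comparison.

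For genes described by their range, the highest or lowest of the 8 values of a tissue was compared with its nearest neighbour. By Dixon's 95% critical value, chance gives about 1 in 20 for independent groups of normally distributed values. The groups here were of chosen genes and shared the same libraries, so no excess over chance can be read from their share. By that critical value, 18 of 166 groups (10.8%) held 1 value that stood apart. In animal 14-2 these were cortical values: Gnas at 1142 CPM with the next at 1046, Grin1 at 778 with the next at 726, Stx1a at 365 with the next at 342, Lrrc10b at 1.59 with the next at 1.13, and Htt, the lowest, at 209 with the next at 234. Its striatum held Pde1a at 40.8 CPM with the next at 32.2. Animal 27-2 had the highest striatal values of Gfap, at 41.8 CPM with the next at 28.7, and Adra1d, at 0.761 with the next at 0.482. The same animal had the lowest striatal value of Mlh3, at 34.9 CPM with the next at 36.4, and the lowest cortical value of Cnr1, at 133 with the next at 148. Animal 14-4 had the highest striatal Ttr, at 26.1 CPM with the next at 11.5, the highest cortical Npas4, at 113 with the next at 64.2, and the highest cortical Gm15446, at 31.2 with the next at 14.2. Animal 12-4 had the highest striatal Grm2, at 1.62 CPM with the next at 1.18, and the lowest cortical Pvalb, at 42.6 with the next at 52.6. Cortical Kcnj6 was highest in animal 27-5, at 42.2 CPM with the next at 36.7, and cortical Nrn1 in animal 8-4, at 267 with the next at 243. Dsg1c was counted in 1 cortex alone, that of animal 11-2, at 0.0230 CPM.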

How the results depend on the processing

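No direction of a called gene printed here was reversed under any alternative. Counts of genes at least 2-fold higher fell from 1643 to 699 in striatum and from 1989 to 893 in cortex with limma on log2(FPKM + 1), a scale that shrinks differences of low genes. Without a filter on low counts the striatal count was 2490. The terms that compare groups of animals moved most: DESeq2 called 152 genes for Pms1 het, 111 for Pms1 null and 30 for sex, where edgeR called 1, 2 and 5; the cause was not tested. Without the animal as a block each of these 3 counts was 0, so none of them is firm. The Q140 count was 2398 without the block and 3250 with it. Pairing by animal otherwise changed little: without the block 6995 genes were higher in striatum and 6927 in cortex, 1646 and 1984 at least 2-fold, and Pms1 het gave 7142 and 6902. Egr1, Eya1, Gm15446 and Hbb-bs lost their call without the block, and Htr2a gained one (adjusted p = 0.024). Htr2a was also called lower by DESeq2 (0.047), by limma with either pseudocount (0.045 and 0.042), with all 96 libraries (0.0135), in females alone (6.3e-05) and without animal 14-4 (0.0027).

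Leaving out each animal in turn gave 7003 to 7155 genes higher in striatum and 6921 to 7048 in cortex, 1628 to 1657 and 1984 to 2012 at least 2-fold, a Drd1 difference of 6.22 to 6.29 and a Slc17a7 difference of -8.39 to -8.26. The median log2 difference of all genes moved by at most 0.00907 under the scalings and other settings tried. Females alone called Npas4, Egr3, Fosb and Nr4a3 as higher in striatum (adjusted p = 0.0097, 9.2e-04, 0.0014 and 0.021), but none of these 4 was among the genes whose sex term passed. In females alone the calls of Cacna1i and Grin2b were lost. Ttr was not called in the fit of all 96 libraries (adjusted p = 0.072). C1ql2 lost its call there (0.105), in females alone (0.101), without animal 8-4 (0.0545) and without the animals of code 27 (0.0652). In males alone the calls of Tcf7l2 and Gapdh were lost (edgeR adjusted p = 0.127 and 0.119). Genes of low counts limit what the depth can show: Drd4, C1ql2 Kcne2 and Sostdc1 stood near or below 1 CPM.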
